A study of Mus musculus with 4 samples.

Results

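The genes described here are those that passed a fold change threshold between PM and control mice in both ileum and liver, in the same direction or in opposite directions. They number 17 of 22180 genes, each by 1 of the 23521 probes that name exactly 1 gene symbol, with 11 in the same direction and 6 in opposite directions. The members were chosen by their measured log2 ratios, which are the log2 value of the PM group minus that of the control group in each tissue. A ratio counted as higher above 1.3-fold (log2 0.38) and as lower below 0.77-fold (log2 -0.38). Because these ratios chose the genes, they are given as a description.

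All 4 groups were male C57BL/6J mice on a high-fat diet, bought at 4 weeks of age, kept for 7 days before the trial, fed for 12 weeks and fasted for 8 h before sampling. The PM group received paramylon, a β-1,3-glucan that Euglena stores as insoluble granules, and the control group received cellulose, each at 5% of the diet as fiber. For the ileum of PM mice, the ileum of control mice, the liver of PM mice and the liver of control mice, RNA of 10 mice was mixed in equal parts and hybridized to 1 Affymetrix array. The ileum and liver pools of a group came from the same mice, and there is 1 array per group, so no spread between mice can be given and no test was made.

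The ileum takes up lipids, bile acids and amino acids and holds a dense population of immune cells. The portal vein carries what leaves the gut to the liver, where resident macrophages meet it first. Chemokines are small secreted proteins that recruit leukocytes, and acute phase proteins are secreted in larger amounts during inflammation. β-glucans are bound by dectin-1, a receptor of macrophages and dendritic cells encoded by Clec7a. In bulk tissue, fewer cells of a type and less RNA per cell cannot be told apart.

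The tissue labels were checked against markers. The median hepatocyte marker stood at percentile 99.6 of all probes on both the PM and the control liver array, against 43.6 on the PM and 43.5 on the control ileum array. Enterocyte markers stood at 97.0 in the PM ileum and 97.6 in the control ileum, against 59.5 on both liver arrays. The median log2 value over all probes was 3.98 in either ileum pool and 2.75 in either liver pool, so a gene's level is compared only within a tissue. A background level was taken as the 95th percentile of 1405 olfactory and vomeronasal receptor probes, which lies at log2 3.68 for ileum and 2.70 for liver.

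Few probes responded in both tissues. In the ileum 136 probes were higher in the PM group (0.578%) and 197 were lower (0.838%), and in the liver 133 were higher (0.565%) and 103 were lower (0.438%). The probes past a threshold in both tissues made up 0.0468% in the same direction and 0.0255% in opposite directions, and nothing is read from these shares since the same ratios define the genes. Of the 136 probes higher in the ileum, 7 were also higher in the liver (5.15%) and 3 were lower. Of the 197 probes lower in the ileum, 4 were also lower in the liver (2.03%) and 3 were higher. Seen from the liver, the shares in the same direction were 5.26% of the 133 higher probes and 3.88% of the 103 lower probes. Probes of the same 4 arrays are not replicates, so no interval is given for these shares.

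Many probes that passed a threshold in one tissue had identical values in the other. Of the 136 probes higher in the ileum, 56 had exactly the same value on the PM and the control liver array, 48 were higher in the PM liver and 32 were lower. Of the 197 probes lower in the ileum, 110 had the same value on both liver arrays. Identical values were common on these arrays: 70.5% of named probes did not differ at all between the PM and the control ileum, and 72.0% did not differ between the PM and the control liver. The values are robust multichip averages that the authors deposited, in which many probes repeat a value exactly. Across the named probes the ileum ratio and the liver ratio had a correlation of 0.0333, a description over probes that share 4 arrays.

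**Figure D1:**
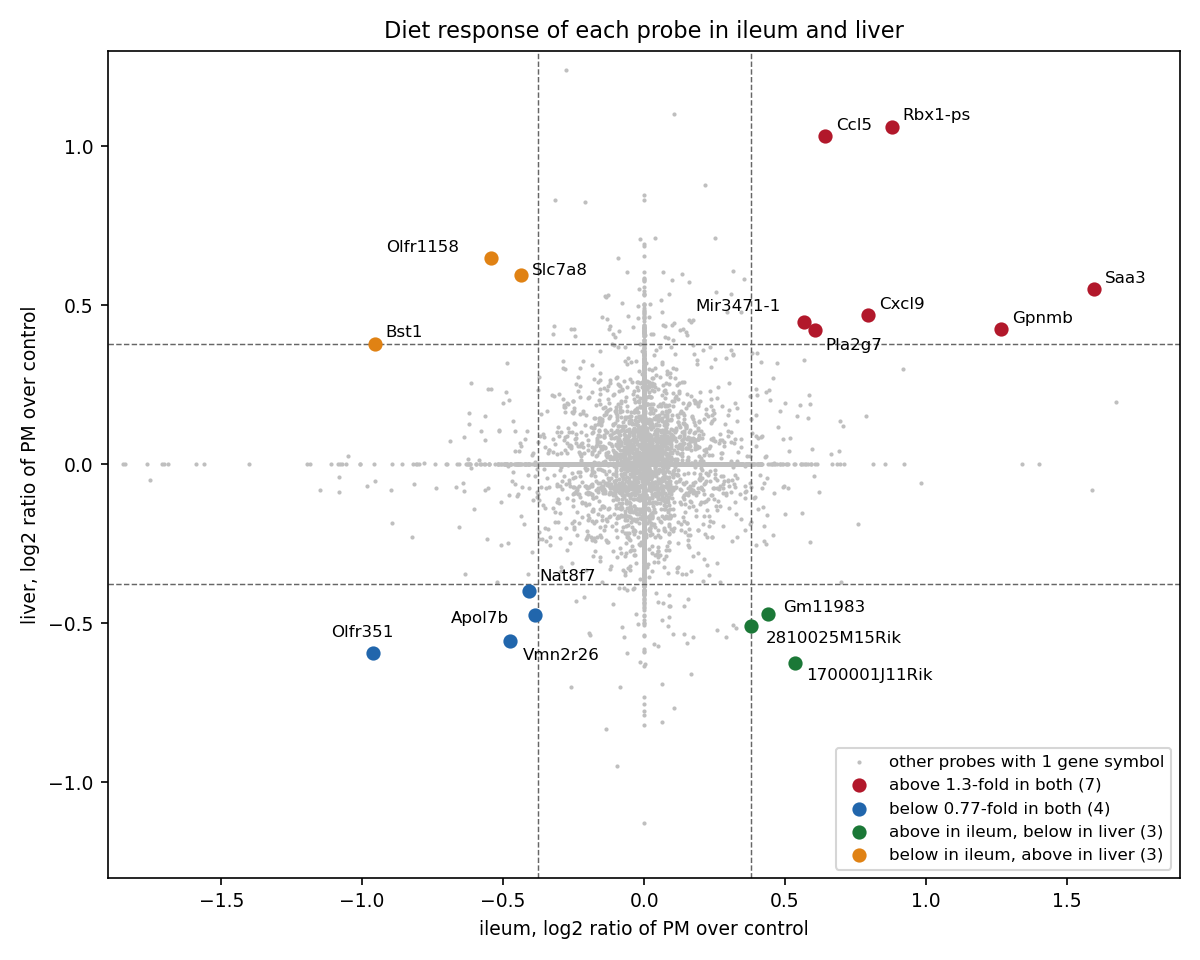
Log2 ratio, PM over control, in ileum (horizontal axis) and liver (vertical axis), 1 point per probe with 1 gene symbol, with dashed lines at 1.3-fold and 0.77-fold. The 17 genes past a line in both tissues are coloured and named, grey points line the axes where a tissue shows no difference at all, and 10 probes lie outside the plotted range.

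The genes higher in both tissues numbered 7, of which 5 code for proteins: the chemokines Ccl5 and Cxcl9, the serum amyloid Saa3, the macrophage glycoprotein Gpnmb and the phospholipase Pla2g7. All 5 coding genes lay above the background level on all 4 arrays. Over the 7 genes the fold change had a median of 1.74 in the ileum (1.48 to 3.03) and of 1.38 in the liver (1.34 to 2.09). The ileum ratio was the larger in 5 of the 7, with Ccl5 and Rbx1-ps as the exceptions.

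Ccl5 encodes a chemokine for T cells, monocytes and eosinophils. Its log2 level was 8.05 in the PM ileum and 7.41 in the control ileum, and 5.53 in the PM liver and 4.49 in the control liver. The response was 1.56-fold for ileum and 2.05-fold for liver, the hepatic log2 ratio being the larger (ileum minus liver -0.39). Of its receptors, Ccr1 read 4.06 on both ileum arrays and lay below the background level in the liver, and Ccr3 lay below it in both tissues.

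Cxcl9 is induced by interferon gamma and attracts T cells that carry the receptor Cxcr3. It stood at log2 7.23 in the PM ileum and 6.43 in the control ileum, and at 7.25 in the PM liver and 6.78 in the control liver. The responses were 1.74-fold and 1.38-fold, so the ileum ratio exceeded the liver ratio by 0.33. Of its 2 relatives that bind the same receptor, Cxcl10 was past the threshold in the ileum alone, at 4.23 in PM mice and 3.82 in control mice, and was 4.08 on both liver arrays. Cxcl11 and Cxcr3 had the same value in PM and control mice in either tissue.

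Saa3 encodes a serum amyloid A that in mice is made by macrophages and epithelial cells as well as by the liver. It had the largest ileum response of the 17, at log2 7.41 in the PM ileum and 5.81 in the control ileum, or 3.03-fold. The liver values were 6.27 in PM mice and 5.72 in control mice, or 1.47-fold. The difference of the differences was 1.05, the widest among the genes that were higher in both tissues. The hepatic relative Saa2 was higher in the liver alone, at 8.45 in PM mice and 7.80 in control mice, and lay below the background level in the ileum. Saa4 did not pass a threshold in either tissue, with a liver ratio of 0.07.

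Gpnmb encodes a membrane glycoprotein of macrophages with a high lysosomal or lipid load. Its log2 level was 5.85 in the PM ileum and 4.58 in the control ileum, or 2.41-fold, and 3.18 in the PM liver and 2.76 in the control liver, or 1.34-fold. The liver values lie close to the background level of 2.70. Cd68, a lysosomal protein of macrophages, had ratios of 0.38 in the ileum, just under 1.3-fold, and 0.22 in the liver. Trem2, a lipid receptor of macrophages, had ratios of 0 and 0.17.

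Pla2g7 encodes the secreted platelet-activating factor acetylhydrolase, which macrophages release and lipoproteins carry. It stood at 5.84 in the PM ileum and 5.23 in the control ileum, and at 3.75 in the PM liver and 3.33 in the control liver. The fold changes were 1.52 and 1.34, and the tissues differed by 0.18 on the log2 scale. Of 24 probes of phospholipases A2 and platelet-activating factor hydrolases, Pla2g7 was the only one above 1.3-fold in either tissue. Pla2g10, a secreted phospholipase, was the only one below 0.77-fold, with a ratio of -0.43 in the ileum and -0.19 in the liver, and the intracellular hydrolase gene Pafah2 had ratios of 0 in both.

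Both remaining genes of this group are noncoding. Rbx1-ps is a pseudogene of Rbx1, which encodes the RING subunit of cullin ubiquitin ligases. Its probe read 4.06 in the PM ileum and 3.19 in the control ileum, and 3.21 in the PM liver and 2.14 in the control liver. Both control values lie below the background level, and with values raised to that level the ratios are 0.38 in the ileum and 0.51 in the liver. Another probe, assigned to Rbx1 and Rbx1-ps together, showed no such response, with 7.50 in the PM ileum and 7.58 in the control ileum and 7.44 on both liver arrays. A pseudogene and its parent gene share sequence, so the source of the signal is uncertain.

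Mir3471-1 encodes a microRNA precursor. The probe read 3.86 in the PM ileum and 3.29 in the control ileum, and 2.59 in the PM liver and 2.14 in the control liver. Both liver values lie below the background level, that is, within the range of most receptor probes. Its RefSeq mature sequence (GRCm38.p6, chr4:10845585-10845606, minus strand) is shown because it is the one small RNA among the 17 genes, with the seed, bases 2 to 8, in capitals. No other of the 1738 mouse mature sequences in the table has this seed.
mmu-miR-3471: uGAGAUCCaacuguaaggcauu

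**Figure D2:**
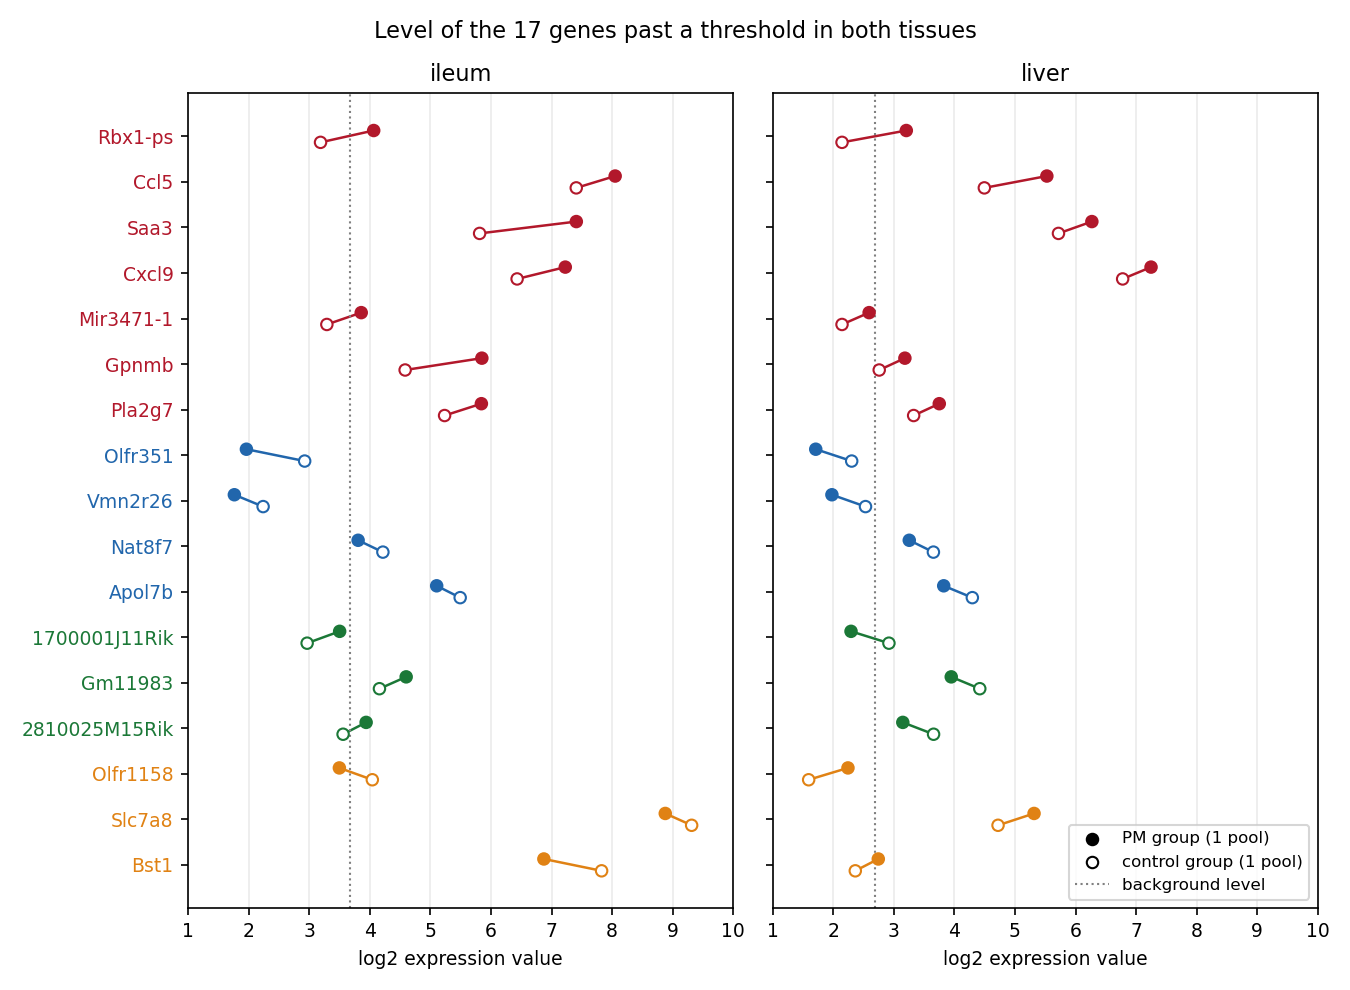
Log2 expression value of the 17 genes in the ileum (left) and the liver (right), with a filled point for the PM pool, an open point for the control pool, and a dotted line at the background level of the tissue. Colours are as in the plot of ratios, and the 3 sensory receptor genes lie below the background level in the liver.

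Promoter sequences were compared for the genes that moved together. RefSeq windows of the 250 bases before the transcription start (GRCm38.p6) were present for 10 of the 17 genes, and those of 4 coding genes higher in both tissues are shown, each 5′ to 3′ on the gene's strand. They lie at chr5:92328080-92328329 for Cxcl9 (minus strand), chr7:46715677-46715926 for Saa3 (minus), chr6:49036268-49036517 for Gpnmb (plus) and chr17:43568201-43568450 for Pla2g7 (plus). Capitals mark matches, on either strand, to 7 motifs: an NF-kB site GGANTTTCC, the interferon-stimulated response element core GAAANNGAA, an E-box CACGTG, a cAMP response element TGACGTCA, an AP-1 site TGANTCA, a sterol response element core TCACNCCAC and a TATA box TATAAA.
Cxcl9: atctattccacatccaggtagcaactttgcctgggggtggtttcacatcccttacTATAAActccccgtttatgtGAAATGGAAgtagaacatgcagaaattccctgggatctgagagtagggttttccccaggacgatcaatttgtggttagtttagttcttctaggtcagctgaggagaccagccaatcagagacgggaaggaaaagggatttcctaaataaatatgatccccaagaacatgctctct
Saa3: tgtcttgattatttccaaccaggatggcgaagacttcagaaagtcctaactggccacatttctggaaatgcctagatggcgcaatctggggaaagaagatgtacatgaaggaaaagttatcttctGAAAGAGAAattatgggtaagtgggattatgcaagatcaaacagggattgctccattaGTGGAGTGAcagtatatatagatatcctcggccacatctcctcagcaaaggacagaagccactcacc
Gpnmb: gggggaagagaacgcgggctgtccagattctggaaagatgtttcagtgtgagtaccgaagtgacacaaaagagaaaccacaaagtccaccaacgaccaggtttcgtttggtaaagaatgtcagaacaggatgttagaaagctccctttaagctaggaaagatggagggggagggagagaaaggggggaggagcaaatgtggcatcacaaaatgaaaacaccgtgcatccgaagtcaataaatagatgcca
Pla2g7: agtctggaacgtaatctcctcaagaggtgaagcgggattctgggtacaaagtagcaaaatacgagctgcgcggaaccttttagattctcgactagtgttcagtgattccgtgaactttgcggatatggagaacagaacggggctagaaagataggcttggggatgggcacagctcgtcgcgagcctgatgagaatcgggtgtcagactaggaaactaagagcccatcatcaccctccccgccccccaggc

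The interferon element core was present in Cxcl9, from 175 to 167 bases before the start, and in Saa3, from 125 to 117 bases before it. Of all 32851 windows, 7.13% hold this motif. Cxcl9 also has a TATA box from 195 to 190 bases before the start, a motif of 12.4% of windows. Saa3 has a sterol element core on the opposite strand, from 67 to 59 bases before the start, a motif of 1.05% of windows. No matches overlap, and the windows of Gpnmb and Pla2g7 hold none of the 7 motifs. None of the 10 windows holds the NF-kB, E-box, cAMP or AP-1 letters, which occur in 1.07%, 6.02%, 1.55% and 6.75% of all windows. Other spellings of the NF-kB site were not searched, and the Cxcl9 window holds gggatttcc, close to the searched letters but not a match. A match describes letters and is not a site of binding, and the lack of a match does not exclude a site.

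The genes lower in both tissues numbered 4, namely Nat8f7, Apol7b, Olfr351 and Vmn2r26, and only Nat8f7 and Apol7b lay above the background level. Their fold changes ranged from 0.51 to 0.76 in the ileum and from 0.66 to 0.76 in the liver.

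Apol7b belongs to the apolipoprotein L family, and its members are closely related in sequence. It stood at log2 5.10 in the PM ileum and 5.49 in the control ileum, and at 3.82 in the PM liver and 4.30 in the control liver, or 0.76-fold and 0.72-fold. Its relatives did not share the pattern: Apol7a had ratios of 0 and -0.04, Apol7e of 0 and 0, and Apol7c of -0.20 and 0.09, its liver values lying below background. With the 2 arrays of a tissue quantile normalized to each other, Apol7b no longer passed in both tissues.

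Nat8f7 belongs to a family of N-acetyltransferases. Its values were 3.81 in the PM ileum and 4.21 in the control ileum, and 3.25 in the PM liver and 3.65 in the control liver. The responses were nearly equal, 0.75-fold in the ileum and 0.76-fold in the liver, with a difference of the differences of -0.01. Its relative Nat8f3 went the other way in the liver, at 3.95 in PM mice and 3.37 in control mice, with no difference in the ileum.

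Olfr351, an olfactory receptor gene, and Vmn2r26, a vomeronasal receptor gene, encode sensory receptors of the nose. Olfr351 read 1.96 in the PM ileum and 2.92 in the control ileum, and 1.71 in the PM liver and 2.30 in the control liver. Vmn2r26 read 1.76 in the PM ileum and 2.24 in the control ileum, and 1.98 in the PM liver and 2.53 in the control liver. All 8 of these values lie below the background level of their tissue.

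Among the genes with opposite responses, Slc7a8 and Bst1 were lower in the ileum and higher in the liver, as was the olfactory receptor gene Olfr1158. Slc7a8 encodes the light chain of a transporter of neutral amino acids, which sits on the basolateral side of intestinal epithelium and works as a pair with the heavy chain Slc3a2. It read 8.88 in the PM ileum and 9.31 in the control ileum, and 5.32 in the PM liver and 4.72 in the control liver. These values are 0.74-fold for ileum and 1.51-fold for liver, a difference of -1.03. Slc7a8 was the only gene annotated as coding among those of opposite response that lay above the background level on all 4 arrays. On the enterocyte list, 8 of 43 probes were lower in the ileum and none higher, against 0.838% lower over all named probes. They were Car1, Lct, Car2, Aqp8, Fabp2, Insl5, Apoa4 and Rbp2, of which Insl5 encodes a gut hormone rather than an enterocyte product. The median ileum ratio of the list was 0, with 6 ratios above 0, 21 below 0 and 16 at 0. Its summed linear level was 60162 in the PM ileum and 64046 in the control ileum. The part of these markers in the Slc7a8 response was not tested. On the pancreatic acinar list, mostly digestive enzymes and their partners, 11 of 27 probes were lower in the ileum and none higher. Of the 27, 8 were not above background in the ileum and 23 were not in the liver. Their summed level was 5670 in the PM ileum and 6019 in the control ileum, and 156 in the PM liver and 161 in the control liver. Zg16, Spink1, Dmbt1, Clps and Pnliprp2, the brightest in the ileum, made up 5364 of it in PM mice and 5224 in control mice. Zg16 is also on the goblet and Paneth list. Without these 5, a choice made after their values were seen, the sum was 306 in the PM ileum and 795 in the control ileum. The part of pancreatic RNA in the ileum responses was not tested.

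The partner and relatives of Slc7a8 did not follow it. Slc3a2 had ratios of 0 in the ileum and -0.06 in the liver. Of the 18 probes of this transporter family and its heavy chains, Slc7a8 alone was below 0.77-fold in the ileum and Slc7a8 alone was above 1.3-fold in the liver. The nearest relatives in direction were Slc7a15, with ratios of -0.34 for ileum and 0 for liver, and Slc7a7, with 0 for ileum and 0.31 for liver. The promoter window of Slc7a8 (chr14:54781887-54782136, minus strand) is shown as that of the opposite gene best above background. It holds the interferon element core from 71 to 63 bases before the start, in capitals, and none of the other motifs.
Slc7a8: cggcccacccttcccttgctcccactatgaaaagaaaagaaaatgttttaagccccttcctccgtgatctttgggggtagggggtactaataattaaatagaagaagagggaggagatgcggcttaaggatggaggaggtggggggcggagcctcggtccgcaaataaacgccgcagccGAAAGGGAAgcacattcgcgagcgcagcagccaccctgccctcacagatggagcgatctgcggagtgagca

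Bst1 encodes CD157, an enzyme on the cell surface that cleaves NAD and is found in mice on myeloid cells, stromal cells and Paneth cells. It had the widest gap between tissues among the 17, at -1.33. Its level was 6.87 in the PM ileum and 7.83 in the control ileum, or 0.52-fold, and 2.74 in the PM liver and 2.36 in the control liver, a log2 ratio of 0.38. The control liver value lies below the background level and the PM liver value just above it, and raised to that level the liver ratio is 0.05. Of 27 goblet and Paneth cell probes, 3 were lower in the ileum, namely Mptx1, Retnlb and Reg4, against 0.838% of all named probes. The median ileum ratio of the list was -0.01, with 8 ratios above 0, 16 below 0 and 3 at 0. Defa22 and the Paneth cell lysozyme Lyz1 had ileum ratios of 0 and 0.07. The summed level of the list was 77202 in PM mice and 78795 in control mice. The part of these cells in the Bst1 response was not tested. Olfr1158 read 3.50 in the PM ileum and 4.04 in the control ileum, and 2.24 in the PM liver and 1.59 in the control liver, both liver values lying below background.

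The genes higher in the ileum and lower in the liver were 3, none of them annotated as coding: 1700001J11Rik, Gm11983 and 2810025M15Rik. Gm11983, for which the reference tables give no gene type, read 4.60 in the PM ileum and 4.16 in the control ileum, and 3.95 in the PM liver and 4.42 in the control liver. It was above the background level on all 4 arrays, and its ratios were 0.44 and -0.47. 1700001J11Rik, a transcribed pseudogene, read 3.50 in the PM ileum and 2.96 in the control ileum, both below background, and 2.29 in the PM liver and 2.92 in the control liver. 2810025M15Rik, a long noncoding RNA, read 3.94 in the PM ileum and 3.56 in the control ileum, and 3.15 in the PM liver and 3.66 in the control liver. A second probe of 2810025M15Rik did not repeat this, with 5.80 on both ileum arrays and 6.17 in the PM liver against 5.84 in the control liver, ratios of 0 and 0.34.

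Level and product were then counted by class. Of the 17 genes, 12 were above background on at least 1 array of each tissue and 9 on all 4 arrays. Among the 7 higher in both tissues 6 were above it in each tissue, against 2 of 4 lower in both, 2 of 3 higher in the ileum and lower in the liver, and 2 of 3 of the reverse. Genes annotated as coding numbered 5, 4, 0 and 3 in these classes, and Gm11983 has no annotated type.

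Some genes lay close to the thresholds. Just inside were Bst1 (smaller ratio 0.38, liver), 2810025M15Rik (0.38, ileum), Apol7b (-0.39, ileum), Nat8f7 (-0.40, liver) and Pla2g7 (0.42, liver). Just outside were Olfr935 (-0.37 in the liver), Erdr1 (-0.37 in the liver), H2-Aa (0.36 in the ileum), Igsf6 (0.35 in the liver) and Igtp (0.35 in the liver). H2-Aa, an MHC class II chain that presents antigen, read 9.79 in the PM ileum and 9.43 in the control ileum, and 6.08 in the PM liver and 5.50 in the control liver. Igtp, an immunity-related GTPase induced by interferon gamma, read 6.03 in the PM ileum and 5.63 in the control ileum, and 7.03 in the PM liver and 6.68 in the control liver. Erdr1 was lower throughout, at 9.51 in the PM ileum and 10.03 in the control ileum, and 8.47 in the PM liver and 8.84 in the control liver.

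At a threshold of 1.2-fold the same-direction genes numbered 34 and the opposite genes 20, all 17 earlier genes included. Of those above background in both tissues, 16 were higher in both, 4 lower in both and 7 opposite. The 16 were Ccl5, Cd3g, Cxcl9, Fcer1g, Gbp10, Gbp4, Gpnmb, H2-Aa, Igsf6, Igtp, Lce3d, Lcn2, Pilrb1, Pla2g7, Rbx1-ps and Saa3. Of these, 10 are on 9 lists of immune genes that hold 233 probes, or 0.991% of those named, against 0 of the 4 and 0 of the 7. The 0.991% is over all named probes, without the background filter that the 16 passed. Ccl5, Cxcl9, Saa3 and Gpnmb, among the 10, are also among the 17 genes that these ratios chose. The lists were written with these results known, so the count of 10 describes the genes and tests nothing. Fcer1g, a signalling chain of Fc receptors and of other activating receptors on myeloid cells, read 7.55 in the PM ileum and 7.09 in the control ileum, and 6.37 in the PM liver and 6.10 in the control liver. The additional opposite genes above background were Gm10012, Hoxb13 and Ppp1cb, and a brighter probe of Ppp1cb, a phosphatase subunit, had ratios of 0 and 0.26.

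The wider gene lists place these genes among their pathways. Of 44 chemokine and chemokine receptor probes, 3 were higher (6.82%) and 1 lower (2.27%) in the ileum. In the liver 4 were higher (9.09%) and 1 lower (2.27%). Over all 23521 probes the shares were 0.578% higher and 0.838% lower in the ileum, and 0.565% higher and 0.438% lower in the liver. The median ratio of the list was 0 in both tissues, as over all probes. Ccl5 and Cxcl9 were the members in both tissues, and both counts of higher probes include these 2, which the same ratios had chosen. Cxcl13, which guides B cells to follicles, was higher in the liver, at 5.51 in PM mice and 4.91 in control mice, and read 8.46 in the PM ileum and 8.33 in the control ileum. Cxcl1, which attracts neutrophils, was also higher in the liver, at 4.32 in PM mice and 3.80 in control mice, while its ileum values lay below background. Ccl4, a chemokine for monocytes and T cells, was lower in the liver, at 2.70 in PM mice and 3.09 in control mice.

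Of 23 acute phase probes, 3 were higher in the ileum and 4 in the liver, against 0.578% and 0.565% over all named probes. None was lower in either, where 0.838% of all named probes were lower in the ileum and 0.438% in the liver. Saa3 was the one in both, and both counts of higher probes include it, though these same ratios had chosen it. Haptoglobin (Hp), which binds free haemoglobin, was higher in the ileum alone, at 6.24 in PM mice and 5.78 in control mice, with 11.99 in the PM liver and 11.98 in the control liver. Orm2, an orosomucoid, was higher in the liver alone, at 6.64 in PM mice and 6.13 in control mice, and was 2.54 on both ileum arrays. Lcn2, which withholds iron from bacteria, read 5.41 in the PM ileum and 5.07 in the control ileum, and 6.27 in the PM liver and 5.79 in the control liver, past 1.3-fold in the liver only.

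MHC class II molecules present antigen to helper T cells. Of their 12 probes, 3 were higher in the liver (25%, against 0.565% over all named probes). In the ileum 0 passed, where 0.578% of all named probes were higher and 0.838% lower. The median ratios were 0.05 in the ileum and 0.10 in the liver. H2-Ab1, a class II chain, read 11.35 in the PM ileum and 11.13 in the control ileum, and 8.18 in the PM liver and 7.31 in the control liver. Its ileum ratio of 0.22 compares with a liver ratio of 0.88. Ctss, the protease that prepares class II molecules for loading, had ratios of 0.02 and 0.50.

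Of 35 interferon-induced probes, 4 were higher in the ileum (11.4%) and 1 in the liver (2.86%), against 0.578% and 0.565% over all named probes. No probe was lower, and the medians were 0. Ubd, a ubiquitin-like modifier, read 5.03 in the PM ileum and 4.11 in the control ileum, and 2.18 on both liver arrays. Gbp4, a guanylate-binding protein gene, had ratios of 0.57 in the ileum and 0.33 in the liver, where the control value lay at background. Ifit1, an antiviral gene, had 0.44 in the ileum and -0.16 in the liver, so the list did not share 1 direction throughout.

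Markers of macrophages and dendritic cells moved beside the chemokines. Of 31 probes, 3 were higher in the ileum (9.68%) and 5 in the liver (16.1%), against 0.578% and 0.565% over all named probes. No probe was lower, and the median ratio was 0.03 in both tissues. Both counts of higher probes include Gpnmb, which these same ratios had chosen. With quantile normalization within a tissue 5 were higher in the ileum, with Cd68 and Itgam added. The summed linear level of the list was 9056 in the PM ileum and 8400 in the control ileum, and 1977 in the PM liver and 1769 in the control liver. Lyz1, a lysozyme of Paneth cells in mice that is also on the goblet and Paneth list, made up 6541 of the sum in the PM ileum and 6244 in the control ileum. It was also among the 5 probes higher in the liver, at 3.09 in PM mice and 2.49, below background, in control mice. Without it the sum was 2514 in the PM ileum and 2156 in the control ileum, and 1968 in the PM liver and 1764 in the control liver. Clec7a, the β-glucan receptor, read 6.27 in the PM ileum and 6.01 in the control ileum, and 5.04 in the PM liver and 4.50 in the control liver, ratios of 0.25 and 0.54. Clec4e, a related lectin receptor, had 1.67 in the ileum, where the control value lay below background, and both its liver values lay below background. Marco, a scavenger receptor of Kupffer cells, had 0 in the ileum and 0.59 in the liver. Of the 31 probes, 6 were not above background in the ileum and 7 in the liver, among them Itgax and Flt3 in the liver.

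Over all named probes 0.578% were higher and 0.838% lower in the ileum, and 0.565% higher and 0.438% lower in the liver. At such shares nothing is read from a count of 0 on a short list. Of 27 T and NK cell probes none passed a threshold in either tissue, and their summed level was 1289 in the PM ileum and 1178 in the control ileum, and 224 in the PM liver and 219 in the control liver. Of these, 13 were not above background in the liver, among them Cd3d, Cd8a and Ncr1. Of 23 B and plasma cell probes none passed either, with summed levels of 4864 in the PM ileum and 4529 in the control ileum, and 851 in the PM liver and 889 in the control liver. Jchain, the joining chain of secreted antibodies, made up 2345 of this in the PM ileum and 2071 in the control ileum. Xbp1, a transcription factor that hepatocytes also express, made up 541 in the PM liver and 581 in the control liver. Without both, the sums were 1755 in the PM ileum and 1694 in the control ileum, and 304 in the PM liver and 301 in the control liver, where 8 of the 23 probes were not above background. Of 18 neutrophil and mast cell probes, 15 were not above background in the ileum and 15 in the liver, S100a8 and S100a9 among both. The part of cell numbers in the responses of Ccl5, Cxcl9, Saa3, Gpnmb and Pla2g7 was not tested.

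The signs of both ratios were also counted for probes that differed by more than 0.1 on the log2 scale in each tissue. Of all named probes 544 did so, with 162 higher in both, 132 lower in both, 110 higher in the ileum and lower in the liver, and 140 the reverse, so that 54.0% had the same sign. On the MHC class II list 4 probes were higher in both and none was otherwise placed. On the macrophage and dendritic cell list it was 5 of 5, namely Gpnmb, Clec4e, Clec7a, C1qb and Cd68, of which Gpnmb was chosen by these ratios and Clec4e lay below background in the liver. Some other immune lists were mixed: 5 of 7 interferon-induced probes had the same sign, 3 of 5 of MHC class I and peptide loading, and 3 of 6 chemokine and receptor probes (50.0%), Ccl5 and Cxcl9 included. On the acute phase list it was 4 of 5, Saa3 included. All 2 such T and NK cell probes and the 1 such B and plasma cell probe were higher in both. No neutrophil and mast cell probe differed by more than 0.1 in each tissue.

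Of 20 probes of cholesterol synthesis, 6 differed by more than 0.1 in each tissue, and all 6 were higher in both, namely Cyp51, Hmgcs1, Fdft1, Sqle, Hsd17b7 and Insig1. Sqle, the squalene epoxidase, read 8.95 in the PM ileum and 8.72 in the control ileum, and 6.88 in the PM liver and 6.68 in the control liver. Cyp51 and Fdps, also enzymes of the pathway, passed 1.3-fold in the liver, with ratios of 0.39 and 0.41, and had 0.10 and 0 in the ileum. With quantile normalization within a tissue Cyp51, at 0.36, no longer passed 1.3-fold in the liver, and 3 of the probes passed 0.1 in both, again all higher.

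Small nucleolar RNAs guide the chemical modification of ribosomal RNA. Of their 81 probes, 13 differed by more than 0.1 in each tissue, and 12 of them were lower in the ileum and higher in the liver, with Snord88c, lower in both, as the exception. Snord42b read 7.11 in the PM ileum and 7.32 in the control ileum, and 6.21 in the PM liver and 5.38 in the control liver. Snord69 had ratios of -0.25 and 0.43, and Snora21 of -0.28 and 0.16. None passed both thresholds, and under quantile normalization the counts were 10 of opposite sign and 2 lower in both.

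**Figure D3:**
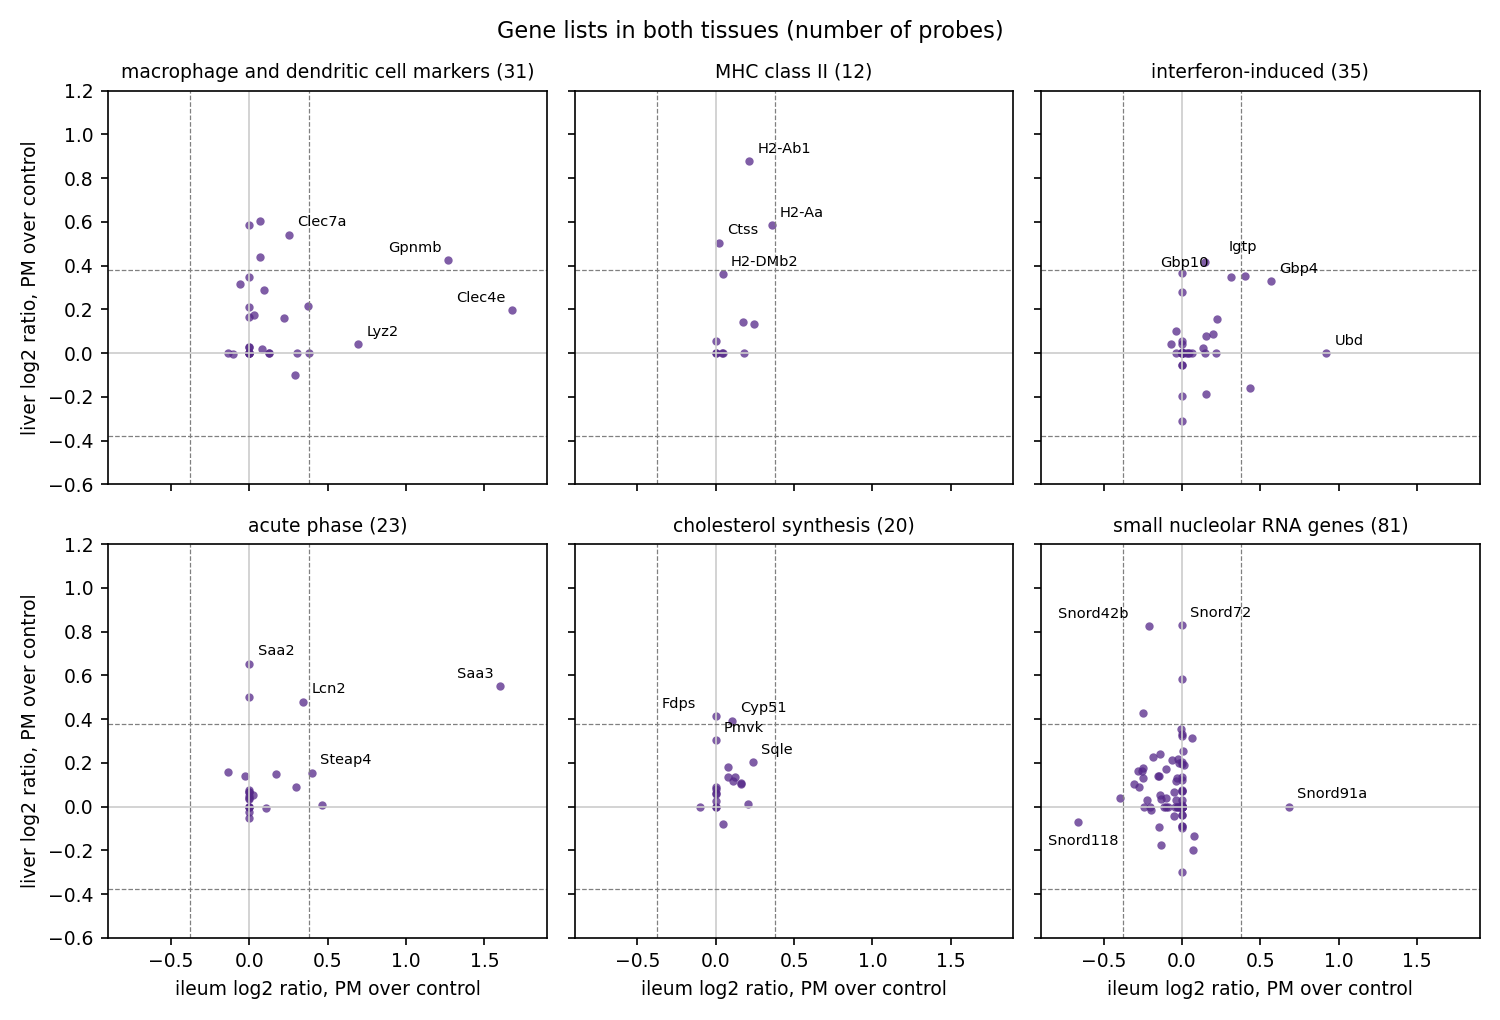
Log2 ratio, PM over control, in ileum (horizontal axes) and liver (vertical axes) for 6 gene lists, 1 point per probe, with dashed lines at 1.3-fold and 0.77-fold. Of the probes that differ by more than 0.1 in both tissues, all 5 macrophage and dendritic cell and all 4 MHC class II probes lie to the upper right of the origin, and 12 of 13 small nucleolar RNA probes to its upper left. Among these, Clec4e and H2-Eb2 lie below background in the liver.

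The gaps between the tissues were ranked among probes that reached the median level of the tissue that moved more. The 10 lowest differences of the differences came from genes lower in the ileum, between -4.96 for Mptx1 and -1.95 for Car2, and their liver ratios lay between -0.12 and 0. Mptx1, a pentraxin of the gut mucosa, read 3.98 in the PM ileum and 8.94 in the control ileum, and 1.78 on both liver arrays, below background. Retnlb, an antibacterial goblet cell protein, read 4.66 in the PM ileum and 9.13 in the control ileum, and 2.38 on both liver arrays. Cpb1, Sycn and Ctrb1, of the pancreatic acinar list, were among the 10, with differences of -3.56, -3.13 and -3.05, and the PM ileum values of Cpb1 and Sycn lay below background. The carbonic anhydrase gene Car2 read 5.43 in the PM ileum and 7.38 in the control ileum, and 5.31 on both liver arrays. Car1, of the same family, read 3.12 in the PM ileum, below background, and 6.25 in the control ileum, a ratio of -3.12 that is -2.57 with the PM value raised to background. In the liver it read 5.84 in PM mice and 5.96 in control mice.

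The 10 highest differences among these probes included 4 of the 17 genes. They were 1700001J11Rik (1.16), Saa3 (1.05), Gm11983 (0.91) and 2810025M15Rik (0.89). Above them stood Iglv1, an immunoglobulin light chain segment, with 10.95 in the PM ileum and 9.36 in the control ileum, a gap of 1.67. Cyp2b9, a steroid-metabolizing P450, was the one gene there that moved in the liver alone, at 8.49 in PM mice and 9.62 in control mice, with 2.47 on both ileum arrays.

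**Figure D4:**
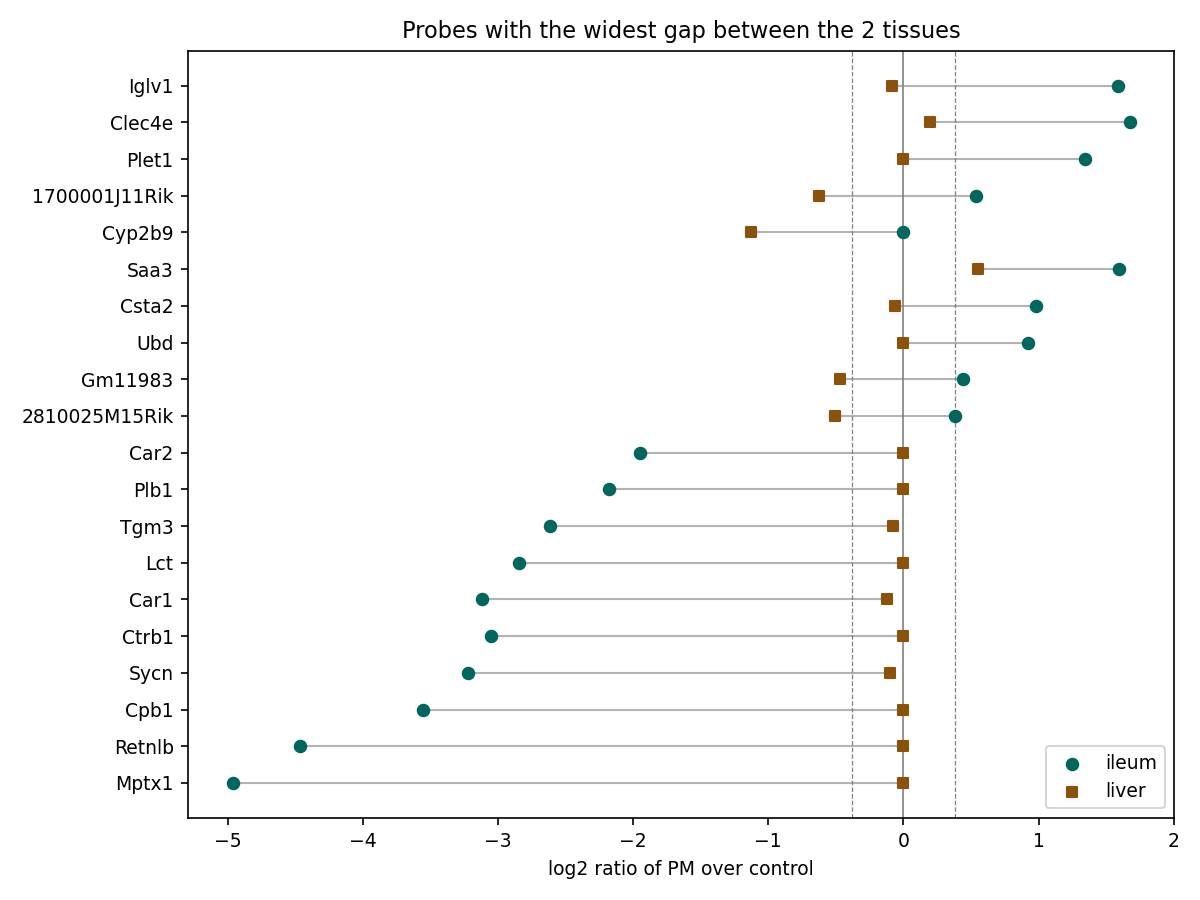
Log2 ratio, PM over control, in ileum (circles) and liver (squares) for the 10 highest and the 10 lowest differences between the tissues among probes at or above the median level in the tissue that moved more, with dashed lines at 1.3-fold and 0.77-fold. The 10 genes at the bottom were lower in the ileum with liver ratios at or near 0, and Saa3 is the one gene with both points right of the dashed lines.

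Probes that name no gene passed both thresholds in larger numbers. Of 16004 such probes, 499 passed in both tissues in the same direction and 450 in opposite directions, and their median control level was log2 3.31 for ileum and 2.36 for liver, below background in both. Among the named probes above background on all 4 arrays (12808), 7 were in the same direction and 2, Slc7a8 and Gm11983, were opposite. The 7 were Ccl5, Cxcl9, Saa3, Gpnmb, Pla2g7, Apol7b and Nat8f7.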

How the data were processed

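Ileum and liver RNA of 10 mice was mixed by the authors for each group, giving 4 pools with 1 array each. The authors deposited log2 expression values made by robust multichip analysis in Affymetrix Expression Console 1.3, as the submitters' processing notes name it. That procedure subtracts background, brings arrays to a common distribution and summarizes the probes of a set. The set of arrays normalized jointly is not given in the sources that were used.

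From the deposited log2 values of 41345 probes, PM minus control was taken in each tissue. The tools were pandas 2.3.3 and numpy 2.4.6 in Python 3.11.15, with statsmodels 0.14.6, scipy 1.17.1 and matplotlib 3.10.9. The platform annotation gave 1 symbol for 23521 probes (22180 genes) and several for 1820, and 16004 are unnamed here. Sequences are from RefSeq tables of GRCm38.p6.

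The genes, the 34 gene lists (26 by name and the rest by a pattern in the symbol), the background level and the rule for named genes were chosen with earlier results of these data known. Named genes are all 17 genes past both thresholds, up to 5 on each side of the threshold, the 10 highest and 10 lowest differences of the differences among probes at or above the median level in the tissue that moved more, and up to 4 of each list. Relatives of the genes, the 1.2-fold genes and other list members were named after their values were seen.

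With 1 array per group there is no test, p-value or standard deviation, and the number of arrays limits the precision. The counting of classes was tested on simulated data. Alternatives were other thresholds, filters, floors, normalizations and probe choices. RT-PCR, serum and liver lipid data were not analysed here.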

Additional observations from a re-analysis of the deposited data

Results flagged for a closer look

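The 6 genes past a threshold in opposite directions had 1 pool moving up in one tissue and 1 moving down in the other. The difference between the tissues was not tested for any of them, since each group has 1 array. The ileum ratio minus the liver ratio was -1.33 for Bst1, -1.19 for Olfr1158 and -1.03 for Slc7a8, which were lower in the ileum and higher in the liver. It was 1.16 for 1700001J11Rik, 0.91 for Gm11983 and 0.89 for 2810025M15Rik, which were higher in the ileum and lower in the liver. Of the 6, Slc7a8 and Gm11983 were above the background level on all 4 arrays.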

How the results depend on the processing

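The main counts were 11 genes in the same direction and 6 in opposite directions. They were 34 and 20 at 1.2-fold, 3 and 0 at 1.5-fold, and 511 and 457 over all probes, named or not. At 1.5-fold the 3 were Ccl5, Rbx1-ps and Olfr351. The opposite count was 2 with probes at or above the median level in both tissues, and 2 with values below background raised to it, and the count in the same direction was 8 under each. The share of ileum probes past a threshold that passed it in the same direction in the liver was 3.30%, and 16.7% over all probes. From the liver it was 4.66%, and 17.6% over all probes.

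Under centring and removal of the trend with level all 17 genes were kept. Under quantile normalization 16 were, with Apol7b lost and Erdr1 gained. Raising values to background kept 10 and lost 2810025M15Rik, Olfr1158, Olfr351, Mir3471-1, Bst1, Vmn2r26 and 1700001J11Rik, which had at least 1 reading below it. Without the sensory receptors, an alternative chosen after seeing the data, the counts were 9 and 5. No paired analysis was possible because each group has 1 pool. No spread between mice is known, and readings near background limit the liver values of Gpnmb, Bst1 and Mir3471-1.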
